A study of Arabidopsis thaliana with 12 samples.

Results

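The intergenic noncoding (IGN) loci IGN5, IGN20, IGN25, IGN27, IGN28 and IGN32 are 6 short regions of the *Arabidopsis* genome at which noncoding RNAs made by RNA polymerase V (Pol V) can be measured by RT-PCR. Their 24-nt siRNAs are described here bin by bin in 12 small RNA libraries. Each locus was taken as the stretch between its RT-PCR primers with 500 bp on each side, and every listed 100-bp bin that overlapped this window was a member. The rule gave 22 bins of the 56658 analysed, of which 9 lay at IGN5, 4 at IGN25, 4 at IGN27, 2 at IGN28, 2 at IGN32 and 1 at IGN20. All 22 members passed the filter on low bins, a level above 5 RPTM in at least 1 library. The other bins of the windows were not in the table and were not analysed here. RNA came from 2-week-old seedlings grown on MS plates, with 3 replicates of each of the 4 genotypes WT (Col-0), *pkl-1*, *nrpd1-3* and *nrpe1-11*. Each mutant is represented by a single allele, and whole seedlings mix all cell types, so fewer siRNA-producing cells and less siRNA per cell cannot be told apart. The labels do not say whether replicates are separate batches of plants, so p-values measure only the spread between these samples. The study picked these loci from an RT-PCR assay of Pol V transcripts, which were lower in *pkl*, and not from siRNA levels. They are described here with earlier results of these siRNA data known.

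In plants, RNA-directed DNA methylation (RdDM) uses a pair of specialised polymerases. Pol IV, whose largest subunit is NRPD1, makes the precursors of 24-nt siRNAs. Pol V, whose largest subunit is NRPE1, transcribes the target itself, and its nascent RNA is a scaffold to which siRNAs loaded on ARGONAUTE4 pair before DNA is methylated de novo. Methylated DNA can in turn favour further siRNA production. PICKLE (PKL) is a chromatin remodeler of the CHD3 family, best known for repressing seed genes in seedlings.

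The 6 amplicons are shown because they fix where each locus lies. They were read from the TAIR10.1 RefSeq genome, whose nuclear sequence is that of TAIR10, on the plus strand and 5′ to 3′. Capitals mark the primer sites.
IGN5, chr4:2323226-2323294: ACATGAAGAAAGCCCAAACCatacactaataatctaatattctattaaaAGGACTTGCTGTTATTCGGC
IGN20, chr4:177355-177423: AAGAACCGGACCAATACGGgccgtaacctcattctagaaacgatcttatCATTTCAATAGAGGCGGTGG
IGN25, chr4:5459197-5459264: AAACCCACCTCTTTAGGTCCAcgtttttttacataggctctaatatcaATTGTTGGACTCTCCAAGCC
IGN27, chr1:4334371-4334421: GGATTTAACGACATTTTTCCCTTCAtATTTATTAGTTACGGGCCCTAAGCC
IGN28, chr1:24838900-24838979: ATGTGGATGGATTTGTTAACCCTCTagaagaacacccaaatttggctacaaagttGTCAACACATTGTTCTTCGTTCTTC
IGN32, chr4:8345680-8345739: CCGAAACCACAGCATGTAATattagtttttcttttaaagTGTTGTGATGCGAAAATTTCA

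The amplicons were 51 to 80 bp long, and no amplicon overlapped an annotated gene. Methylation at CHH sites (cytosines followed by bases other than G) is maintained by RdDM and by the DNA methyltransferase CMT2. Counted on both strands, the amplicons held from 11 CHH sites at IGN27 and IGN32 to 28 at IGN28. IGN20 was the richest in CG sites, with 10, where the others held 2 to 4. IGN5 lies 916 bp from the lncRNA gene AT4G04905 and 1584 bp from *APR1*, which encodes an adenosine-5′-phosphosulfate reductase of sulfate assimilation. IGN20 lies 485 bp from *GPAT8*, an acyltransferase of cutin synthesis, and 616 bp from the pseudogene AT4G00413. IGN25 is the most isolated of the 6, with AT4G08580 at 2134 bp and AT4G08570 at 3097 bp. IGN27 lies 338 bp from the pseudogene AT1G12725 and 78 bp from AT1G12730, and its bin 4334401-4334500 is the only member that reaches into an annotated gene. IGN28 lies 111 bp from *SAG24*, which encodes a ribosomal protein, and 1459 bp from the sucrose transporter gene *SUC7*. IGN32 lies between *NF-YB3*, a histone-fold transcription factor gene at 356 bp, and the lncRNA gene AT4G06195 at 365 bp. Transposable elements are no class of this annotation, so the members were not assigned to them.

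Levels are in RPTM, the number of 24-nt reads in a bin per 10000000 mapped small RNAs of 18 to 30 nt. Mapped reads ranged from 5598380 to 12390784 per library. A bin with no read may have held up to 3 reads' worth of siRNA, 2.42 to 5.36 RPTM depending on the library, and such limits and all counting intervals given here cover counting error only. Over all analysed bins the 24-nt total was 69.4%, 84.7% and 96.9% of the WT mean in *pkl* replicates 1, 2 and 3, between 37.9% and 39.5% in *nrpd1*, and between 58.0% and 62.3% in *nrpe1*.

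In WT all 6 windows carried 24-nt siRNAs, and their levels spanned a 13.8-fold range. The sum over the 9 bins of IGN5 was 310.7, 307.8 and 309.9 RPTM in WT replicates 1, 2 and 3, the highest mean of the 6 windows and the closest set of replicates. The 2 bins of IGN32 summed to 288.1, 178.1 and 201.0 RPTM, and those of IGN28 to 207.4, 223.9 and 230.3 RPTM. These 2 windows overlapped each other in WT, while IGN5 lay above every other window in each library. IGN25 followed with 59.7, 108.1 and 100.5 RPTM. IGN27 held 66.2, 61.1 and 71.2 RPTM, within the range of IGN25, so that the order of this pair was not resolved by the replicates. The single bin of IGN20 was the lowest, with 27.4, 20.4 and 19.5 RPTM. The sums are not per length, since the windows differ in the number of bins listed. The highest of the listed bins was not always the one over the amplicon. At IGN28 the bin from 24838701 to 24838800, which ends before the amplicon starts, held 176.7, 165.3 and 170.3 RPTM in WT. The only listed bin that touches the IGN28 amplicon overlaps it by 1 base and held 30.7, 58.5 and 60.0 RPTM. At IGN20 no bin over the amplicon was listed.

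**Figure D1:**
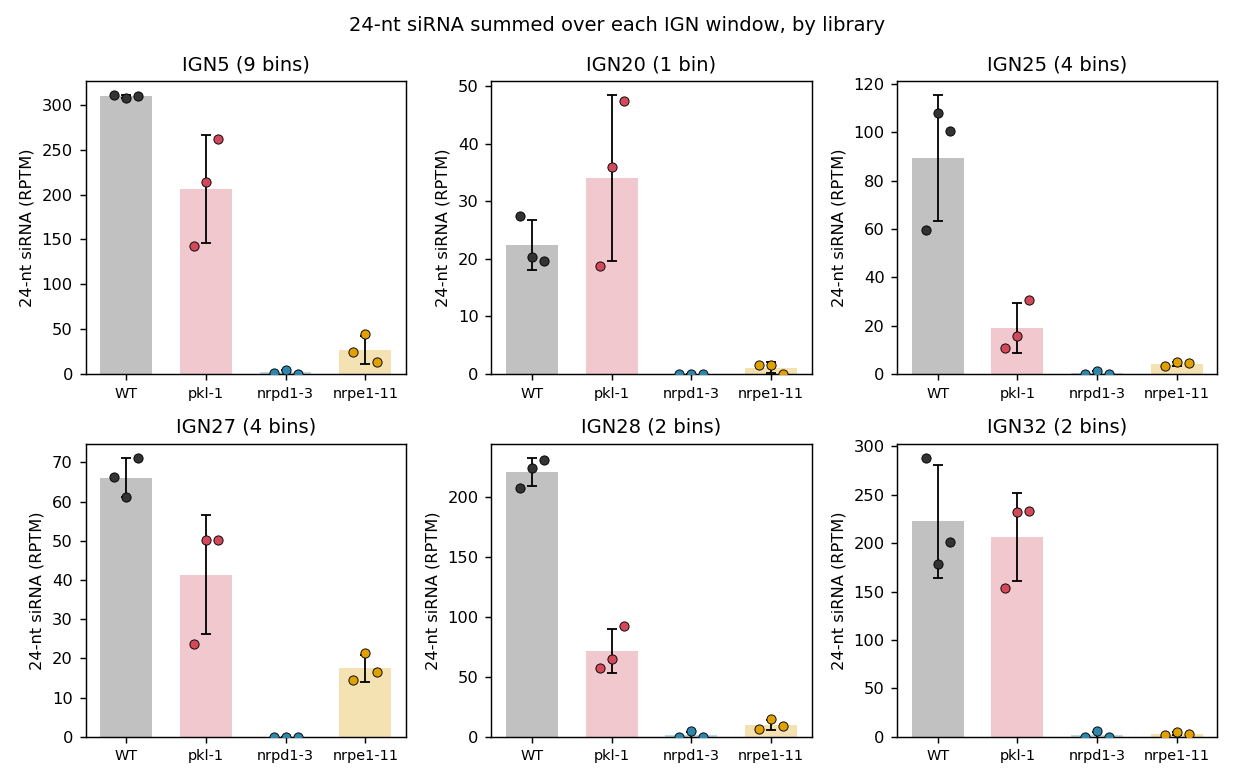
24-nt siRNA (RPTM) summed over the listed bins of each IGN window, with 1 panel per locus and its own scale. Points are the 3 libraries of a genotype, bars their mean and error bars the SD. In *nrpd1* every sum is at or under 5.95 RPTM, *nrpe1* keeps a visible level at IGN27 and IGN5, and *pkl* lies below WT at IGN5, IGN25, IGN27 and IGN28 and overlaps WT at IGN20 and IGN32.

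Loss of Pol IV left almost no 24-nt siRNA at any IGN locus. In *nrpd1* the 22 bins held 12 reads in total over 3 libraries, against 2564 reads in WT, and 11 of the 12 came from replicate 2. The sum over the 6 windows was 1.12, 16.4 and 0 RPTM in *nrpd1* replicates 1, 2 and 3, against 959.6, 899.3 and 932.4 RPTM in WT. Replicate 2 was the highest of the 3 and still lay at a small part of the lowest WT library. The mean was 0.626% ± 0.982 of WT (SD, n = 3; exact two-sided permutation p = 0.1, the smallest that 3 libraries against 3 allow, so that no such test here could reach 0.05). Without replicate 2 it was 0.0600%. No library had a read at IGN20 or IGN27, where *nrpd1* was at least 5.11-fold and at least 15.1-fold lower than WT when each empty library was set to 3 reads. At IGN25 a single read gave 0.554% of WT, with a 95% counting interval from 0.0141% to 3.14%. By limma on log2(RPTM + 1), with p adjusted by the Benjamini-Hochberg method over all analysed bins and calls at an adjusted p under 0.01, all 22 bins were lower in *nrpd1*, where the background was 84.6% of all bins. Each *nrpd1* library lay below each WT library in all 22 bins, against 86.5% of all bins. In the same test on window sums, run over 22012 windows of the whole table, all 6 windows were called lower, against 89.2% of windows. The counts in this mutant are thus close to what most siRNA bins of the genome gave. The median fitted log2 fold change was -4.71 over the 22 bins and -2.95 over all analysed bins, values that depend on the pseudocount. With means below the value of 3 reads set to that value, the medians were -2.83 and -0.78. The median percent of WT was 0 over the 22 bins. It was also 0 over the 40197 analysed bins with a WT mean above 5 RPTM.

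Loss of Pol V lowered the siRNAs of all 6 loci to between 1.43% and 26.4% of WT. In *nrpe1* the 6 windows summed to 51.5, 91.6 and 46.6 RPTM, or 6.80% ± 2.65 of WT (SD, n = 3; exact permutation p = 0.1). Each window lay below the WT range in each *nrpe1* library. IGN32, among the highest in WT, kept the smallest share of its WT level, 1.43%, with 1.61, 4.91 and 3.01 RPTM in *nrpe1* (log2 fold change -5.79, SE 0.36, limma adjusted p = 1.57e-05). IGN28 kept 6.44, 14.7 and 9.02 RPTM (4.56% of WT) and IGN25 kept 3.22, 4.91 and 4.51 RPTM (4.71%). IGN20 held 2 reads in all, 4.82% of WT with a 95% counting interval from 0.535% to 17.0%, which overlaps the interval of IGN32 (0.495% to 2.96%). IGN5 kept 24.2, 44.1 and 13.5 RPTM, or 8.82% ± 5.02 of WT. IGN27 kept the largest share, 14.5, 21.3 and 16.5 RPTM, or 26.4% ± 5.24 of WT (log2 fold change -1.88, SE 0.24, limma adjusted p = 0.000248). By limma 18 of the 22 bins were called lower in *nrpe1*, against a background of 29.4%, and 20 did not overlap WT, against 41.7%. All 6 windows were called lower, against 40% of windows. The median log2 fold change was -3.42 over the 22 bins and -0.68 over all 56658 analysed bins. As a percent of WT the median was 6.06% over the 22 bins. Over the 40197 analysed bins with a WT mean above 5 RPTM it was 32.9%.

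The 4 bins not called in *nrpe1* lay at IGN5, IGN25 and IGN27. At IGN27 nearly all siRNAs that remained sat on 1 side of the amplicon. The bin from 4334201 to 4334300 held 31.5, 19.1 and 32.1 RPTM in WT and 12.9, 11.4 and 13.5 RPTM in *nrpe1*, that is 45.8% of WT (log2 fold change -1.03, SE 0.31, limma adjusted p = 0.0265). The bin from 4334401 to 4334500, which overlaps the amplicon, held 23.4, 28.0 and 19.5 RPTM in WT and no read in any *nrpe1* library (limma adjusted p = 6.53e-05). Only 12.2% of the 24-mers of the bin from 4334201 to 4334300 occur once in the reference genome, and all 24-mers of the bin from 4334401 to 4334500 do. In the bin between them, from 4334301 to 4334400, 81.3% of the 24-mers are unique and others occur up to 12 times. It held 0, 1.64 and 0 RPTM in *nrpe1*, or 4.93% of WT, and was called lower (limma adjusted p = 0.00184). The study's methods state that only uniquely mapped reads were kept, but how reads from sequence with several copies were placed could not be settled from the files. The level of the bin from 4334201 to 4334300 may therefore include reads from other copies. The part of sequence copies in the difference between these bins was not tested. The neighbouring bin from 4334101 to 4334200 held 2.42, 5.09 and 4.19 RPTM in WT and 1.61, 8.18 and 3.01 RPTM in *nrpe1*, too few reads to show a difference at this depth. In *nrpd1* IGN27 had no read. Against *nrpd1*, *nrpe1* was called higher in the bin from 4334201 to 4334300 (limma adjusted p = 4.32e-05). In the bin from 4334101 to 4334200 it was not (limma adjusted p = 0.0158). Its *nrpe1* mean there, 4.26 RPTM, lies within the 3.35 to 5.36 RPTM that 3 reads are worth in *nrpd1*.

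**Figure D2:**
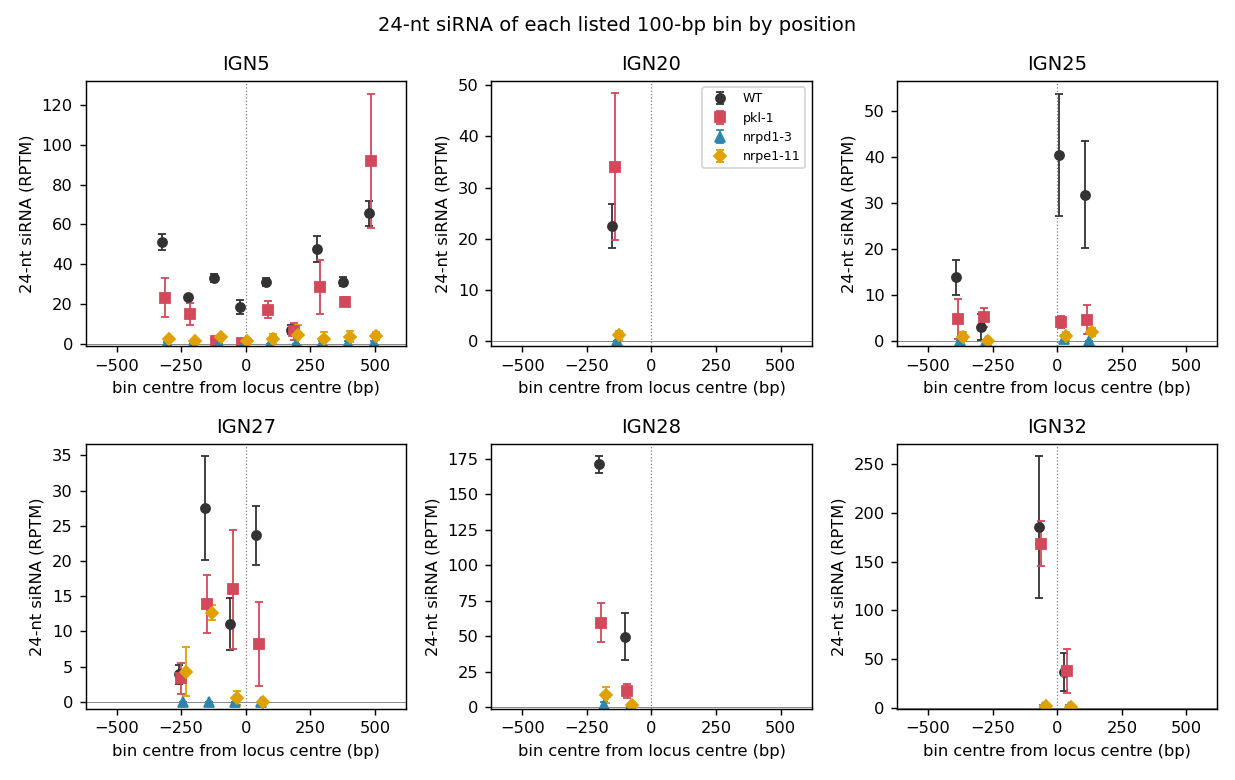
Mean 24-nt siRNA (RPTM) ± SD over 3 libraries of each listed 100-bp bin, plotted by the distance of its centre from the centre of the locus (dotted line). Genotypes are offset sideways for clarity. At IGN5 the *pkl* values fall to 1.41 and 0.795 RPTM in the bins at the centre and rise on both sides.

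In *pkl* the 6 loci did not move together. The siRNAs fell at IGN25 and IGN28, fell in the middle of IGN5, and overlapped the WT range at IGN20 and IGN32. Over the 6 windows the *pkl* libraries summed to 407.4, 612.9 and 715.3 RPTM, or 62.2% ± 16.8 of WT (SD, n = 3), and all 3 lay below the WT libraries (exact permutation p = 0.1). Replicate 1 was the lowest *pkl* library at all 6 loci and also had the lowest 24-nt total of the 3, and without it the sum was 71.4% of WT. With all libraries scaled to equal 24-nt totals it was 73.4%. By limma 6 of the 22 bins were called lower in *pkl*, against a background of 8.2% of all bins. None was called higher, against 1.98%. At an unadjusted p under 0.05 limma and edgeR gave 0 higher bins and DESeq2 on the recovered reads gave 2, and none of the 3 called any after adjustment. Limma gave 2 at that unadjusted p with equal 24-nt totals, 3 with equal totals of bins up to 1000 RPTM and 2 without pkl replicate 1. The *pkl* libraries lay below all WT libraries in 12 of the 22 bins, where 24.5% of all bins did, and above them in 0, where 9.35% did. Of the windows, IGN25 and IGN28 were called lower, where 11.5% of all windows were. The median log2 fold change was -0.82 over the 22 bins and -0.31 over all analysed bins, which include bins low in WT. As a percent of WT the median was 58.1% over the 22 bins, of which 20 had a WT mean above 5 RPTM. Over all 40197 analysed bins above that WT mean it was 67.7%. Without pkl replicate 1 the count of bins called lower was again 6, and without WT replicate 2 it was 3.

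**Figure D3:**
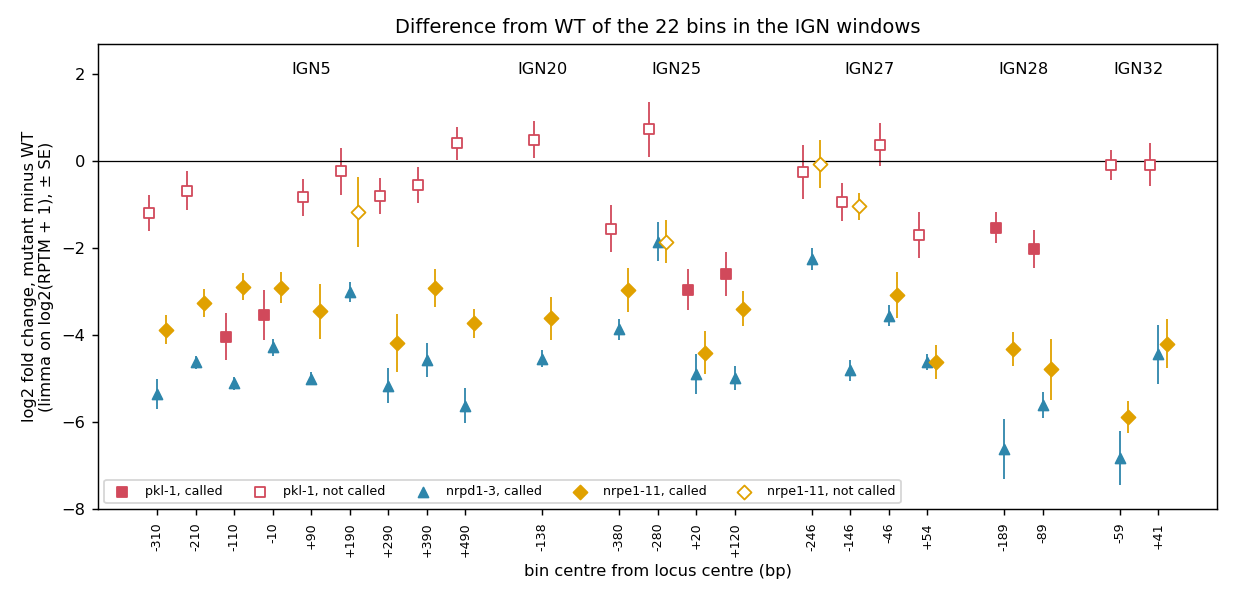
Log2 fold change of each of the 22 bins in *pkl*, *nrpd1* and *nrpe1* against WT, by limma on log2(RPTM + 1), with its standard error. Bins are labelled by the distance of their centre from the locus centre. Filled symbols are bins called at an adjusted p under 0.01, of which *pkl* has 6, *nrpd1* 22 and *nrpe1* 18.

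IGN25 showed the lowest mean level of the 6 windows relative to WT in *pkl*. Its *pkl* libraries, at 12.2% to 34.3% of the WT mean, overlapped those of IGN28, at 26.1% to 41.7%, so this order was not resolved. The sum of IGN25 was 10.9, 15.8 and 30.7 RPTM in *pkl* against 59.7, 108.1 and 100.5 RPTM in WT, or 21.4% ± 11.5 of WT (log2 fold change -2.24, SE 0.42, limma adjusted p = 7.44e-05). The highest *pkl* library lay below the lowest WT library. The bin over the amplicon, from 5459201 to 5459300, held 26.6, 42.0 and 53.0 RPTM in WT and 2.97, 4.31 and 5.58 RPTM in *pkl*, a log2 fold change of -2.95 (SE 0.47, limma adjusted p = 2.86e-05). The next bin fell by 2.59 on the log2 scale (limma adjusted p = 0.000325). Of the 2 bins upstream of the amplicon in the plus strand, neither was called.

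At IGN28 siRNAs fell in both listed bins. The window summed to 57.5, 64.6 and 92.0 RPTM in *pkl*, or 32.4% ± 8.27 of WT (log2 fold change -1.64, SE 0.35, limma adjusted p = 0.000496). The bin with the highest level, from 24838701 to 24838800, held 50.6, 53.1 and 75.3 RPTM in *pkl*, where each WT library held more than 165 RPTM (log2 fold change -1.52, SE 0.35, limma adjusted p = 0.00242). The bin that touches the amplicon held 6.94, 11.5 and 16.7 RPTM in *pkl*, or 23.6% of WT (log2 fold change -2.01, limma adjusted p = 0.00154). The *pkl* libraries stayed well above the 6.44 to 14.7 RPTM of *nrpe1* in the window sum. Without WT replicate 3 the adjusted p of the window was 0.0111 and with a joint fit of all 12 libraries it was 0.0545, so that the call was lost under these settings while the log2 fold change was -1.61 and -1.64.

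IGN5 as a whole was at 66.6% ± 19.4 of WT in *pkl*, with 142.8, 213.9 and 262.1 RPTM, below each WT library but not called (log2 fold change -0.63, SE 0.34, limma adjusted p = 0.190). This sum joined unlike parts. The stretch below is shown because it holds the 2 called bins of IGN5, on the plus strand with the RT-PCR amplicon in capitals.
IGN5, chr4:2323101-2323300: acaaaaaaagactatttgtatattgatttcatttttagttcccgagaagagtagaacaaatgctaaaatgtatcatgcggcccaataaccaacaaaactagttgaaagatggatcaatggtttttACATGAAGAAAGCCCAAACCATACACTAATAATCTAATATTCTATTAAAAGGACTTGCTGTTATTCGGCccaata

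In the first 100 bases of this stretch the *pkl* libraries held 0, 1.44 and 2.79 RPTM, where the WT libraries held 32.3, 35.6 and 32.1 RPTM (log2 fold change -4.03, SE 0.54, limma adjusted p = 2.34e-06). In the last 100 bases, which contain the whole amplicon, they held 0.991, 0 and 1.39 RPTM, where WT held 16.1, 22.9 and 16.7 RPTM (log2 fold change -3.53, SE 0.57, limma adjusted p = 3.96e-05). Together these bins held 5 reads in 3 *pkl* libraries against 141 in WT. Every 24-mer of both bins occurs once in the reference genome. The other 7 bins of the window summed to 141.8, 212.4 and 257.9 RPTM in *pkl* and 262.3, 249.3 and 261.0 RPTM in WT, or 79.2% ± 22.7 of WT, and the groups overlapped (exact permutation p = 0.2). This division was made after the values were seen. The highest bin of the window, from 2323701 to 2323800, held 59.5, 89.0 and 126.9 RPTM in *pkl* and 63.0, 61.1 and 72.6 RPTM in WT, a difference that was not called (log2 fold change 0.42, SE 0.38, limma adjusted p = 0.487). Without this last bin *pkl* stood at 46.9% ± 11.3 of WT. In the last bin 58.5% of the 24-mers are unique in the reference genome and others occur up to 9 times. In the bins from 2323401 to 2323700 the unique share is between 56.9% and 84.6%. The doubt about the placement of reads thus holds for the levels of these bins too. The part of repeats in the difference along IGN5 was not tested.

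The study tiled IGN5 with 11 amplicons, A1 to A11, for a nucleosome assay. The bins under A1 and A2 were not listed. The bins under A7 are the same 2 called bins as above, the first of which A7 overlaps by 1 base, so its value restates theirs. In *pkl* the bins under A3 and A4, the same single bin, stood at 45.3% of WT and those under A5 at 64.5%. The level then dropped to 29.2% at A6 and to 4.24% ± 3.33 at A7, over the RT-PCR amplicon, and came back to 36.6% at A8 and to between 62.6% and 64.2% at A9, A10 and A11. The bins under A3 to A8 have only unique 24-mers, and those under A9, A10 and A11 include bins with repeated ones. Neighbouring amplicons share bins, so the values of the amplicons are not independent of each other. Over A3 to A11 *nrpe1* stayed between 5.19% and 18.5% of WT, and at A7 it stood at 10.2% ± 1.97. These values rest on 3 to 13 reads per amplicon over 3 libraries, too few to show whether *nrpe1* had such a dip. In *nrpd1* none exceeded 1.26%.

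**Figure D4:**
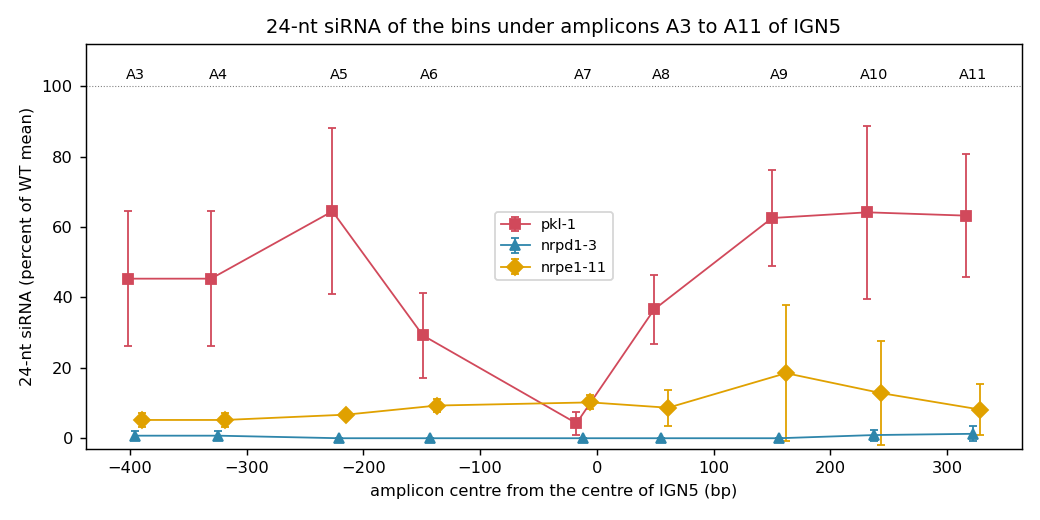
24-nt siRNA of the bins under amplicons A3 to A11 of IGN5 as a percent of the WT mean, by the distance of the amplicon centre from the centre of IGN5. Error bars are the SD over 3 libraries, and lines join the points of a genotype. The *pkl* line falls to 4.24% at A7 and stays at or above 29.2% elsewhere, while *nrpe1* and *nrpd1* stay low along the locus.

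IGN27 stood at 62.6% ± 23.1 of WT in *pkl*, with 23.8, 50.2 and 50.2 RPTM, below each WT library but not called (log2 fold change -0.74, SE 0.39, limma adjusted p = 0.182). Its bins differed among themselves. The bin from 4334401 to 4334500 held 1.98, 8.61 and 13.9 RPTM in *pkl* and was 34.6% of WT (log2 fold change -1.70, limma adjusted p = 0.0225), which missed the threshold. The bin before it, which also overlaps the amplicon, held 6.94, 17.2 and 23.7 RPTM in *pkl* and 8.88, 8.90 and 15.3 RPTM in WT, so that the groups overlapped. The highest bin of the window, from 4334201 to 4334300, held 11.9, 18.7 and 11.2 RPTM in *pkl*, 50.5% of WT and close to the 45.8% seen in *nrpe1*, but was not called (limma adjusted p = 0.147).

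At IGN20 and IGN32 *pkl* and WT overlapped. The bin of IGN20 is shown with the sequence up to the end of the RT-PCR amplicon, which is in capitals, because the only bin listed for this window lies next to the amplicon. The bins over the amplicon were not listed and not analysed.
IGN20, chr4:177201-177423: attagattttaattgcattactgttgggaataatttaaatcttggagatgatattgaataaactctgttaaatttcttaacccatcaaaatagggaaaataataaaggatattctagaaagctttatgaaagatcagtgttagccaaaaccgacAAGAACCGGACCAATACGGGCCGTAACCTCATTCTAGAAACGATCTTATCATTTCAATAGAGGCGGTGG

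The listed bin is the first 100 bases of this stretch. It held 18.8, 35.9 and 47.4 RPTM in *pkl*, with a mean of 152% ± 64.0 of WT, and its lowest library lay below the WT range and the others above it (log2 fold change 0.50, SE 0.43, limma adjusted p = 0.432; exact permutation p = 0.4). IGN32 held 153.7, 232.5 and 232.8 RPTM in *pkl*, or 92.8% ± 20.5 of WT. Here the log2 fold change was -0.10 (SE 0.35, limma adjusted p = 0.869; exact permutation p = 0.8), and its sign turned to 0.17 and 0.36 under 2 other scalings to 24-nt totals and to 0.10 without either WT replicate 1 or pkl replicate 1. The bin from 8345601 to 8345700, which covers the start of the amplicon, held 269.6, 143.7 and 143.8 RPTM in WT and 141.8, 182.3 and 181.3 RPTM in *pkl*. WT replicate 1 stood well above the other WT libraries in this bin. The bin after it held 18.6, 34.3 and 57.2 RPTM in WT and 11.9, 50.2 and 51.6 RPTM in *pkl*, again with overlap. In the bin from 8345601 to 8345700, 62.6% of the 24-mers are unique and others occur up to 2213 times in the reference, so the same doubt about the placement of reads holds for its level. With 3 libraries per group these overlaps do not show that *pkl* and WT are alike at the 2 loci.

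Set against Pol V loss directly, *pkl* kept more siRNA at every locus. Each *pkl* library lay above each *nrpe1* library in all 6 windows (exact permutation p = 0.1 at each). The ratio of means was 2.38 at IGN27, 4.54 at IGN25, 7.09 at IGN28 and 7.56 at IGN5. IGN20 and IGN32 held 78 and 484 reads in *pkl* and 2 and 6 reads in *nrpe1*. By limma on the 3 *pkl* and 3 *nrpe1* libraries, IGN5, IGN20, IGN28 and IGN32 were called higher in *pkl*, against 26.5% of windows. IGN25 (log2 fold change 1.84, SE 0.52, limma adjusted p = 0.0199) and IGN27 (1.14, SE 0.40, limma adjusted p = 0.0483) were not. Of the 22 bins, 12 were called higher, against 18% of all bins. No bin was called lower by limma, edgeR or DESeq2, against 0.973% of all bins by limma. At an unadjusted p under 0.05 none of the 3 tools gave a lower bin, but limma gave 1 with equal 24-nt totals, 2 with equal totals of bins up to 1000 RPTM, 1 in the joint fit of all libraries and 1 without pkl replicate 3. In mean level *pkl* was lower in the bin from 4334101 to 4334200 of IGN27, 3.37 against 4.26 RPTM, where the groups overlapped. It was also lower in the 2 bins in the middle of IGN5, with 0.991, 1.44 and 4.18 RPTM together in *pkl* and 6.44, 4.91 and 4.51 RPTM in *nrpe1*. The *pkl* libraries thus lay below the *nrpe1* libraries there, but on 5 and 10 reads, and neither bin was called (log2 fold change -1.15, SE 0.62, limma adjusted p = 0.187, and -0.62, SE 0.47, limma adjusted p = 0.350). Leaving out pkl replicate 2, 2 bins of the 22 were called higher in *pkl* than in *nrpe1*, without pkl replicate 3 it was 3, and without nrpe1 replicate 1 or 3 it was 6.

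Between the 2 polymerase mutants, *nrpe1* kept more siRNA than *nrpd1*, with 119 reads over the 22 bins against 12. At IGN27 the difference was called (log2 fold change 4.19, SE 0.19, limma adjusted p = 5.28e-05), and at the other 5 windows it was not, where 54.9% of all windows were called higher in *nrpe1*. Without nrpd1 replicate 2, which held 11 of the 12 reads, limma also called IGN5 (adjusted p = 0.00746), IGN25 (0.00263) and IGN28 (0.00319). Without nrpe1 replicate 3, which had no read at IGN20, limma called IGN20 (adjusted p = 6.12e-05). IGN5 had 51 reads in *nrpe1* and 4 in *nrpd1* and missed the threshold with a limma adjusted p of 0.0115. IGN32 had 6 and 4 reads, and IGN20 had 2 and 0, and these reads are too few to read a difference from. Of the 22 bins, 5 were called higher in *nrpe1*, against 43.2% of all bins. Without nrpd1 replicate 1 it was 3, and with DESeq2 it was 1. Of these calls, 2 at IGN5 rest on 1 read in each *nrpe1* library. Another at IGN5 rests on 3, 2 and 2 reads, and 1 at IGN25 on 1, 1 and 2 reads. An empty *nrpd1* bin also allows all of these levels, so nothing is read from them. These comparisons and those with WT share libraries, so their values stand side by side and are not independent.

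Bins over the amplicons and bins beside them were set side by side as a description, since bins are no replicates. The 7 bins that overlap an amplicon summed to 67.6% ± 17.7 of WT in *pkl*, and the 15 flanking bins to 58.7% ± 16.6. In *nrpe1* the same sums were 2.16% ± 0.731 and 9.81% ± 4.13 of WT. In *nrpd1* they were 0.677% and 0.593%. The share kept over the amplicons in *pkl* came largely from IGN32, whose bins hold most of the WT level there. Bins in which every 24-mer is unique in the genome had a median of 34.8% of WT in *pkl* (12 bins), and bins with repeated 24-mers a median of 90.7% (10 bins). The corresponding medians in *nrpe1* were 5.87% and 6.06%. The group with repeated 24-mers includes bins with few of them, such as that of IGN20, where 99.2% are unique. All bins of IGN25 and IGN28 had only unique 24-mers and all bins of IGN20 and IGN32 had repeated ones. The split thus also follows the locus. All 6 bins called lower in *pkl* had only unique 24-mers, and the part of repeats in this pattern was not tested.

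Another group of Pol V sites, the Pol V-stabilized nucleosomes PVS1 to PVS6 that the study assayed by ChIP, was located by its primers and taken with the same flanks. It also gave 22 bins. In *pkl* 3 of them were called lower and 1 higher by limma, where 8.2% and 1.98% of all bins were. Their median log2 fold change was -0.83, beside -0.82 for the IGN bins and -0.31 for all bins, which include bins low in WT. In *nrpe1* 17 were called lower, where 29.4% of all bins were, with a median of -3.36. In *nrpd1* 21 were called lower, where 84.6% of all bins were. Outside both groups, the bins most like the IGN loci over the 12 libraries, by Pearson r with the mean log2 window sum among 6694 bins with a mean of at least 20 RPTM, were chr5:15106901-15107000 (r = 0.999), chr1:19268701-19268800 (r = 0.998) and chr3:19392201-19392300 (r = 0.997). The mean level of the first of these was 276 ± 29.0 RPTM for WT and 146 ± 47.8 RPTM for *pkl* (SD, n = 3). It was 9.56 ± 4.50 RPTM for *nrpe1* and 0.496 ± 0.858 RPTM for *nrpd1*. The likeness rests on 4 genotypes and is given as a description.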

How the data were processed

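Small RNAs of 18 to 30 nt from 12 libraries were sequenced. The authors trimmed bases with a quality under 30, removed structural RNA reads, and mapped the rest to TAIR10. Per the labels, their processing used CASAVA 1.8, Trim Galore 0.4.0, BWA 0.7.15, bedtools, and edgeR. The deposited values are a signal per 100-bp bin, 24-nt reads scaled by the authors to 10000000 mapped reads (RPTM). Reads that span 2 bins are counted in each. All values were whole multiples of 1 read (tolerance 0.01), from which reads and mapped totals were recovered. In *pkl* replicate 1 a read was worth 0.991 RPTM, and as in every other library its reads rest on the multiples alone.

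Bins above 5 RPTM in at least 1 library were analysed. For each pair of genotypes, limma 3.58.1 (R 4.3.3, eBayes with a trend, two-sided) was fitted to log2(RPTM + 1), with Benjamini-Hochberg adjustment over all bins and calls under 0.01. Fold changes on this scale understate those of low bins. Window sums were fitted alike beside a grid of windows of 11 bins. The study used edgeR, and limma was chosen because the values are normalized. Exact two-sided permutation tests compared libraries. Counting intervals are 95% exact intervals. Alternatives were pseudocounts, filters, scalings, window sizes, a joint fit, a replicate block, edgeR 4.0.16, DESeq2 1.42.0, a threshold of 0.05, and each library left out. Sequences and genes are from RefSeq TAIR10.1. All 6 loci, the bin over each and the highest bin of each window are named, and bins of like pattern by highest r. The members and lists were chosen with earlier results of these data known.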

Additional observations from a re-analysis of the deposited data

How the results depend on the processing

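Another scaling of the libraries moved the values in the following way. For equal 24-nt totals the log2 ratio of mutant to WT scale factors was 0.27 (*pkl*), 1.37 (*nrpd1*) and 0.73 (*nrpe1*). For the second scaling, on bins up to 1000 RPTM, it was 0.46, 3.46 and 1.28. Fitted log2 fold changes of bins with few or no reads moved by less, since the pseudocount of 1 was added after scaling. The summed level of the 6 windows was then 83.5% of WT in *pkl* under the second scaling, 1.63% and 6.32% in *nrpd1*, and 11.2% and 16.3% in *nrpe1* under the 2 scalings. Over the bins on the amplicons it was 2.16% in *nrpe1*. The mean over loci, an alternative chosen after seeing the data, was 71.2%, 0.453% and 8.45% in *pkl*, *nrpd1* and *nrpe1*. Under the second scaling the *nrpd1* calls of IGN5 (log2 fold change -4.85), IGN28 (-5.40) and IGN32 (-5.25) and the *nrpe1* call of IGN27 (-0.64) were lost, and the *nrpe1* bin 4334201-4334300 of IGN27 turned to 0.17.

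IGN32 in *pkl* changed sign to 0.17 and 0.36 under the scalings and 0.26 with DESeq2, and ranged from -0.25 to 0.10 with each library left out. Its bin 8345601-8345700 turned to 0.19 and 0.38 under the scalings and to 0.20 with DESeq2, and ranged from -0.23 to 0.22 with each library left out. Its bin 8345701-8345800 turned to 0.19 and 0.36, to 0.049 with edgeR and 0.26 with DESeq2, and ranged from -0.48 to 0.60 with each library left out. IGN5 in *pkl* was called with 250 bp on each side (-1.23) or over its amplicon bin alone (-3.53), where its sign against *nrpe1* turned (-0.62). IGN28 in *pkl* was not called in the joint fit (-1.64) and ranged from -1.837 to -1.502 with each library left out.

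Counts of called bins ranged from 3 to 8 in *pkl* with each library left out. A pseudocount of 0.1 gave 11 lower bins in *nrpe1* and 7 higher bins in *pkl* against *nrpe1*, which ranged from 2 to 9 with a library left out. The count higher in *nrpe1* than in *nrpd1* was 8 at an adjusted p of 0.05, 10 in the joint fit, 3 with edgeR and 1 with DESeq2, and ranged from 3 to 7 with a library left out. For single windows between mutants, calls at IGN20 were lost with a pseudocount of 0.1 (-5.06 in *nrpe1* against WT, 5.58 in *pkl* against *nrpe1*), and IGN20 between *nrpe1* and *nrpd1* ranged from 0.69 to 1.39 with a library left out. *pkl* against *nrpe1* was called at IGN25 at 0.05 or in the joint fit (1.84) and with edgeR (2.11), and at IGN27 at 0.05 (1.14) and over the amplicon bins (3.98, ranging from 0.97 to 1.49 for the whole window with a library left out), while IGN28 over its amplicon bin was not (2.77). *nrpe1* against *nrpd1* was called at IGN5 at 0.05 or in the joint fit (3.49), with a pseudocount of 5 (2.17), edgeR (3.72), DESeq2 (3.47), 250 bp (3.39) and the amplicon bin (1.37), and ranged from 2.90 to 4.13 with a library left out. It was called at IGN25 at 0.05 or in the joint fit (1.93) and with a pseudocount of 5 (0.75; 1.71 to 2.37 with a library left out), and at IGN28 at 0.05 or in the joint fit (2.58) and with edgeR (2.67; 2.17 to 3.40). IGN27 over its amplicon bins was not called (0.47). The cause of these changes was not tested.

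The labels do not say whether replicate numbers pair the samples, and the main fits did not pair them. Deviations of same-numbered libraries correlated from -0.04 to 0.17, and 2 of 18 pairs were over 0.1. In 14 of these 18 comparisons between genotypes the same number gave the highest correlation. This is a hint of pairing from the data, which the labels do not settle. With the replicate block 7 bins were lower in *pkl*, 22 in *nrpd1* and 18 in *nrpe1*, 13 were higher in *pkl* than in *nrpe1* and 1 in *nrpe1* than in *nrpd1*, and IGN5 was called between *nrpe1* and *nrpd1* (3.49). Levels under 3 reads per library limit all comparisons with *nrpd1*.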
